A study of Mus musculus with 10 samples.

Results

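Very long protein-coding genes are described here through the open chromatin regions in their interiors. A region was kept when it lay on an autosome, wholly inside the span of a protein-coding gene longer than 500000 bp (build mm10), and over 1000 bp from either end of that gene. The rule kept 14377 of 246799 regions (5.83%), in 216 genes. The rule uses positions only, although the class was proposed with earlier results of these data known. The shortest kept span was that of Edil3 (501754 bp) and the next that of Dock1 (502961 bp), while Dnm3 (495872 bp) and Lrrc7 (494798 bp) lay just under the limit. Their median span was 734553 bp, and the longest was that of Ptprd (2270506 bp, chr4:75941237-78211742). Nrxn3 (chr12:88722701-90334935) and Lsamp (chr16:39984254-42181679) are 2 further genes of this class.

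Genes of this size are mostly introns, and many of them code for neuronal surface proteins: cell adhesion molecules, synapse organisers, guidance receptors and ion channels. Their introns hold distal regulatory elements, and their internal promoters start shorter transcripts. Several lie at common fragile sites, stretches of chromosome that break when replication is slowed. ATAC-seq, which tags open DNA with a cutting and pasting enzyme, reads the accessibility of these elements and not the transcription of the gene, and an element inside a gene need not act on that gene.

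All groups came from wild-type mouse ES-Bruce4 embryonic stem cells (C57BL/6), which had been kept on inactivated mouse embryo fibroblasts and were depleted of these feeders before plating. All groups received 10 ng/ml bFgf throughout. CHIR99021, an activator of Wnt signalling, was given at 5 µM from D2 on. Time in CHIR99021 therefore rose with the day and was shortest at D2, and the 2 cannot be told apart. The 5 groups were D2 (labelled as epiblast stem cells), D3, D6, D7 with Gdf11, and D7, the last 4 labelled as neuromesodermal progenitors, caudal cells that give rise to spinal cord and paraxial mesoderm. D7 with Gdf11 had received 50 ng/ml human Gdf11, a ligand of the TGF-beta family, for the last 24 h. Each group had 2 libraries of 50000 cells, and the labels do not say whether these came from separate cultures, so p-values measure only the spread between these libraries.

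The elements that can be shown as sequence are internal promoters that overlap a member region. Each stretch below is a RefSeq promoter of GRCm38.p6, 250 bases before to 50 bases after an annotated start, read 5′ to 3′ on the strand given, and each was chosen after the values were seen. Rarb (retinoic acid receptor beta) and Sox6 (an SRY-related transcription factor) had promoter regions that were higher at D7 than at D2, and Magi2 (a scaffold of cell junctions and synapses) 1 that was lower. Lsamp (an adhesion molecule of the IgLON family) and Nrxn3 (a presynaptic neurexin) are shown because the class is known for them. Capitals mark a direct repeat with its spacer in Rarb and CpG dinucleotides in the other 4.
Rarb, chr14:16575427-16575726, minus strand: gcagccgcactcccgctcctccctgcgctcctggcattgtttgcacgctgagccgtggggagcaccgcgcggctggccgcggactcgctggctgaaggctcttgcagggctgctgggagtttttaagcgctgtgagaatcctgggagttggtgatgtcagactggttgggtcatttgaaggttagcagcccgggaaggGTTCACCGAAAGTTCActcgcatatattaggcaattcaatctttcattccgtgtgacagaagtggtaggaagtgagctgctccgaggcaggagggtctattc
Sox6, chr7:115824661-115824960, minus strand: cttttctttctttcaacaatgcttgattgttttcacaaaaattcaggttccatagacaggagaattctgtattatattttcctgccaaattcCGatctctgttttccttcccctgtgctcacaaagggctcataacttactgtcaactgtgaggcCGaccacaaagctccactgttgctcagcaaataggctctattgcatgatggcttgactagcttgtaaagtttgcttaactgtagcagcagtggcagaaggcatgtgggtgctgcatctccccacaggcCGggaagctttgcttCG
Magi2, chr5:19907268-19907567, plus strand: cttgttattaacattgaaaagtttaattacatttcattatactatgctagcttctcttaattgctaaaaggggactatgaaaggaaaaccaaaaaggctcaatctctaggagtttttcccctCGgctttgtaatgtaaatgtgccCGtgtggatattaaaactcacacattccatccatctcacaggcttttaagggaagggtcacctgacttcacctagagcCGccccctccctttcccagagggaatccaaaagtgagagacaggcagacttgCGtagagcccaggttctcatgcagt
Lsamp, chr16:41532576-41532875, plus strand: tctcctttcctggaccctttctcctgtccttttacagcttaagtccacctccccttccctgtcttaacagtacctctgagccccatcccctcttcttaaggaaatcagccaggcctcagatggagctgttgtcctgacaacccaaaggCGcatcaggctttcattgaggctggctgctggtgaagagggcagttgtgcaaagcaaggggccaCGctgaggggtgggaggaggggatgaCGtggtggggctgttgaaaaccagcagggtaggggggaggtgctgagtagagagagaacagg
Nrxn3, chr12:89812233-89812532, plus strand: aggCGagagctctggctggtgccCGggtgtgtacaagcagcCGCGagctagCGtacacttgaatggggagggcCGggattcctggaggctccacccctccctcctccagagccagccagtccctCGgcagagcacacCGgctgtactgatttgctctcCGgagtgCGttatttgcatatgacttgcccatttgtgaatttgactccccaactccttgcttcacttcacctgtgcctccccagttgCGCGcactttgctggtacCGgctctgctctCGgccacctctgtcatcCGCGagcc
The repeat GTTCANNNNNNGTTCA, searched on both strands, is of the kind bound by retinoic acid receptors, for which the Rarb promoter is a textbook case. It begins 52 bases before the start in Rarb. It was found in 25 of 32851 RefSeq promoters of this length (0.0761%) and in 1 of the 132 promoters that lie inside their own very long gene. CpG dinucleotides numbered 17 in the Rarb window, 16 in Nrxn3, 4 in Sox6, 4 in Magi2 and 3 in Lsamp, where the median over all promoters was 7.

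Totals ran from 7150334 counts (D3, replicate 2) to 12335735 counts (D6, replicate 1), and replicate 1 was the deeper library in every group. Accessibility at marker genes followed the labels in part. Fgf5, an epiblast marker, had 47.4 and 52.6 CPM (counts scaled to a common library size) at D2 and at most 22.1 CPM in any other library. T and Cdx2, markers of caudal progenitors, had their highest values at D3. T had 17.3 and 22.1 CPM at D3, against 7.42 and 10.2 CPM at D2. At D7, with or without Gdf11, it lay between 5.74 and 6.75 CPM, below both D2 libraries. Cdx2 had 81.0 and 90.3 CPM at D3 and 53.0 and 64.2 CPM at D7. With Gdf11 it had 33.3 and 29.5 CPM, near the 36.4 and 32.9 CPM of D2. Col1a1, a fibroblast gene, lay between 16.8 and 23.3 CPM in the 10 libraries, while Twist2, of mesenchyme and fibroblasts, lay between 9.72 and 14.8 CPM at D2 and D3 and between 26.0 and 34.8 CPM in the later libraries. Col1a2, a further fibroblast gene, went the other way, between 14.7 and 21.5 CPM at D2 and D3 and between 8.28 and 12.5 CPM in the later libraries. The part of these differences in any result was not tested.

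The interiors of very long genes took a larger share of the counts in the later libraries. They held 3.33% and 3.00% of autosomal counts at D2, 3.45% and 3.08% at D3, 3.70% and 3.50% at D6, and 3.71% and 3.66% with Gdf11 against 3.66% and 3.69% at D7. All 6 later libraries lay above all 4 earlier ones. The later libraries averaged 3.65% ± 0.0775 and the earlier ones 3.22% ± 0.212 (SD), a difference of 0.439 percentage points (two-sided exact permutation test, p = 0.00952, adjusted p = 0.0286 over 6 shares tested). That p is the smallest the 210 permutations can give. The test treats the 10 libraries as exchangeable, although they form 5 groups of 2. In every group but D7 the deeper replicate 1 held the larger share, and the part of depth in the difference was not tested. The replicates of D2 and of D3 were further apart than those of the later groups, and 2 libraries against 2 cannot give a p below 0.333. Since each library is a mixture of cells, more cells with an open region and a more open region in each cell cannot be told apart.

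The gain was shared by genes of intermediate length. Interiors of genes of 100 to 500 kb held 12.5% ± 0.245 of the counts in later libraries and 11.1% ± 0.350 in earlier ones (exact permutation p = 0.00952). Interiors of genes up to 100 kb held less, 14.0% ± 0.252 in later libraries and 14.7% ± 0.440 in earlier ones (exact permutation p = 0.0286). The share of very long genes divided by that of genes of 100 to 500 kb was 0.292 in later libraries and 0.289 in earlier ones (exact permutation p = 0.505), so a gain particular to genes over 500 kb was not detected.

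**Figure D1:**
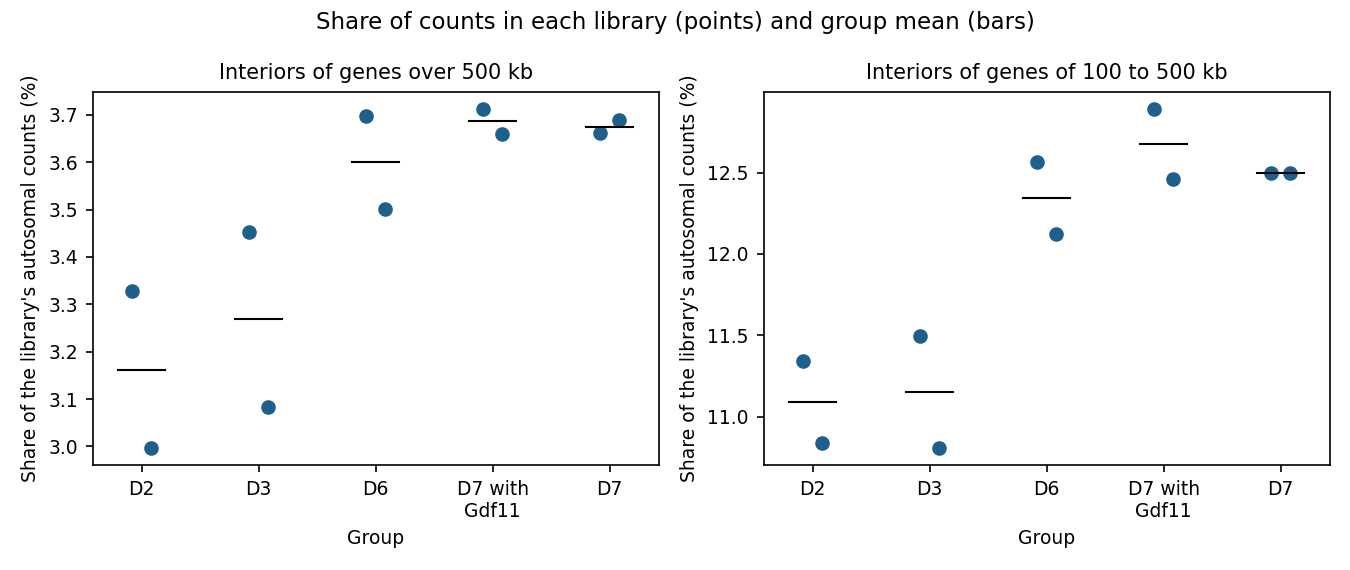
Share of each library's autosomal counts (%, vertical axis, not starting at 0) in the interiors of genes over 500 kb (left) and of 100 to 500 kb (right) in the 5 groups on the horizontal axis, with 1 point per library and a bar at the mean. On the left the 6 libraries of D6, D7 with Gdf11 and D7 lie between 3.50% and 3.71%, above the 4 libraries of D2 and D3, which lie between 3.00% and 3.45%.

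Member regions were weak on the whole. They had a median width of 177 bp (184 bp over all regions), 42.2% had been called as a peak in 1 library only (39.5% of all regions), and 7.70% in all 10 (13.1% of all regions). The filter on low counts passed 9480 of them and removed 4897. All 216 genes kept tested regions, with 9 to 215 member regions per gene and a median of 62. Nav2, a neuron navigator, had the densest interior (19.4 regions per 100 kb), and Nrg3, a neuregulin growth factor, the sparsest among genes with at least 10 regions (2.44 per 100 kb). Macrod2 (215 regions), Pde4d (176) and Auts2 (160) held the most, followed by the predicted genes Gm37013 (155) and Gm38666 (151), whose overlapping spans share 151 regions. In all, 235 member regions lay inside 2 or more very long genes.

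At the level of regions, most changes were gains. A region or gene is said to be called, or to have risen or fallen, when its adjusted p was under 0.05 in edgeR's quasi-likelihood test, with Benjamini-Hochberg adjustment over all 173175 regions or 12362 genes tested. At D7 against D2, 2769 member regions rose (29.2% of those tested, background over all regions 22.0%) and 1273 fell (13.4%, background 15.8%). From D2 to D3, 1063 rose (11.2%, background 8.82%) and 349 fell (3.68%, background 4.35%). At D6 against D3, 1307 rose (13.8%, background 9.19%) and 555 fell (5.85%, background 6.05%). The last day brought few calls without Gdf11: at D7 against D6, 137 rose (1.45%, background 0.974%) and 31 fell (0.327%, background 0.207%). With Gdf11 against D7 the balance was the other way, with 139 higher (1.47%, background 1.09%) and 358 lower (3.78%, background 2.65%). Both directions together, the background shares over all regions were 13.2% at D3 against D2, 15.2% at D6 against D3, 1.18% at D7 against D6, 3.73% with Gdf11 against D7 and 37.7% at D7 against D2. The members' shares were close to those of genes of 100 to 500 kb, which at D7 against D2 were 26.8% higher and 12.6% lower.

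These counts of called regions fell in some settings. DESeq2 called 879 member regions at D3 against D2, 1235 at D6 against D3, 110 at D7 against D6, and 258 with Gdf11 against D7, of which 30 were higher and 228 lower. Without TMM scaling (library size only) the Gdf11 comparison gave 183 higher and 208 lower, and D7 against D6 gave 76 higher and 39 lower. Leaving out a library lowered the count most at D7 against D6, to 44 without D6 replicate 2, 48 without D7 replicate 2 and 86 without D6 replicate 1. With Gdf11 against D7 it gave 314 without D7 replicate 1, 223 without D7 replicate 2, 194 without Gdf11 replicate 1 and 320 without Gdf11 replicate 2. At D3 against D2 the count was 935 without D2 replicate 1 and 908 without D3 replicate 1, and at D6 against D3 it was 1236 without D3 replicate 2 and 1062 without D6 replicate 1.

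When the interior counts were summed per gene, 115 of the 216 very long genes rose at D7 against D2 (53.2%, background over all genes 25.4%) and 37 fell (17.1%, background 22.0%). The changes were modest: the median log2 change was 0.29 over the 216 genes and 0.02 over all genes, and 28 genes were called with more than a 2-fold change. The range ran from -1.47 in Skint5 to 2.48 in Lrmda. From D2 to D3, 64 genes rose (29.6%, background 12.4%) and 18 fell (8.33%, background 10.5%). At D6 against D3, 78 rose (36.1%, background 12.6%) and 29 fell (13.4%, background 8.95%). At D7 against D6, 30 rose (13.9%, background 3.41%) and 4 fell (1.85%, background 1.06%). With Gdf11 against D7, 12 were higher (5.56%, background 2.91%) and 47 lower (21.8%, background 6.62%). Both directions together, the background over all genes was 22.9% at D3 against D2, 21.5% at D6 against D3, 4.47% at D7 against D6, 9.53% with Gdf11 against D7 and 47.4% at D7 against D2. A very long gene sums many regions, and its median log2 CPM of 6.88, against 3.14 over all genes, gives the test more counts; the part of this depth in the higher shares was not tested. Genes of 100 to 500 kb lay between, with 44.0% higher and 19.8% lower at D7 against D2.

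Library scaling and single libraries bear on these gene counts. With library size only, the median of all genes shifted by 0.16 with Gdf11 against D7, by -0.10 at D7 against D6 and by -0.13 at D7 against D2. The very long genes then numbered 28 higher and 14 lower with Gdf11 (12 and 47 with TMM), 8 higher and 5 lower at D7 against D6 (30 and 4 with TMM), and 93 higher and 49 lower at D7 against D2 (115 and 37 with TMM). Their median minus that of all genes was -0.08 with Gdf11 under both scalings, and 0.27 at D7 against D2 under both. DESeq2 gave 48 higher and 24 lower at D3 against D2 (64 and 18 in edgeR). There the split was 30 higher and 30 lower without D2 replicate 2, and 33 higher and 24 lower without D3 replicate 1. At D6 against D3, 70 genes were called without D3 replicate 2 and 64 without D6 replicate 1. At D7 against D6, 14 were called without D6 replicate 2 and 10 without D7 replicate 2. With Gdf11, 27 were called without D7 replicate 2 and 30 without Gdf11 replicate 1.

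**Figure D2:**
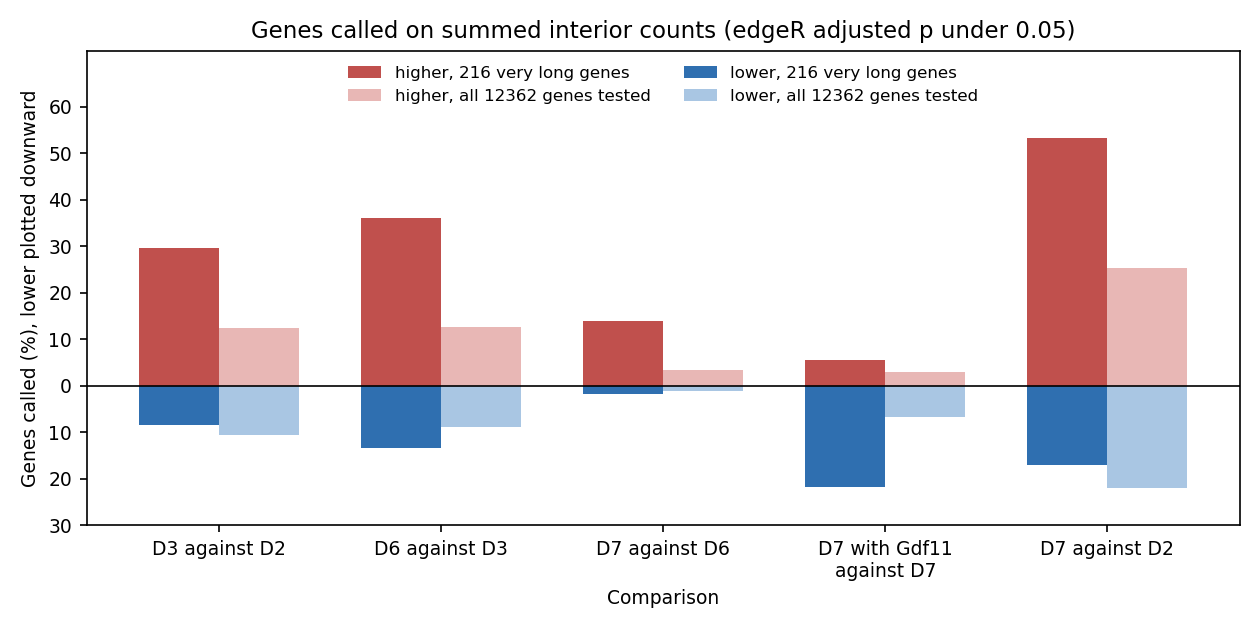
Percent of genes called higher (upward bars) or lower (downward bars) in each of the 5 comparisons on the horizontal axis, for the 216 very long genes (dark, left) beside all 12362 genes tested (pale, right). The dark upward bar is highest at D7 against D2 (53.2%), and with Gdf11 against D7 the dark downward bar (21.8%) exceeds the upward one (5.56%).

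Gains and losses were mixed inside the genes. At D7 against D2, 202 of the 216 genes held regions that rose together with regions that fell. This was so for 152 genes at D3 against D2, at D6 against D3 for 173, at D7 against D6 for 14 and with Gdf11 against D7 for 60. These counts depend on how many regions a gene holds (median 62) and how many are called. At D7 against D2, 29.2% of tested member regions rose and 13.4% fell, so a gene can hold both by number alone. Whether the counts differ from that was not tested. Of the 6880 tested regions over 100 kb from the nearer gene end 30.6% rose at D7 against D2, of the 2200 at 10 to 100 kb 26.4%, and of the 400 at 1 to 10 kb 21.0%. The shares that fell were 13.4%, 13.4% and 13.3%. Both are given as a description, with no test between them.

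The 3 genes by which the class is known gave different calls. Ptprd, a receptor tyrosine phosphatase that organises synapses, held 185 and 169 CPM at D2, 235 and 230.1 at D3, 347 and 314 at D6, and 313 and 334 with Gdf11 against 344 and 355 at D7. Every library from D6 on lay above every library of D2 and D3, and both D3 libraries above both D2 libraries. Its log2 change was 0.39 ± 0.08 (SE, adjusted p = 9.7e-05) at D3 against D2, 0.51 ± 0.08 (SE, adjusted p = 2.8e-07) at D6 against D3 and 0.98 ± 0.08 (SE, adjusted p = 3.4e-19) at D7 against D2. Of its 97 tested regions 42 rose and 11 fell at D7 against D2. Nrxn3 held 436 and 390.1 CPM at D2, 395 and 369 at D3, 567 and 508 at D6, and 523 and 569 with Gdf11 against 595 and 592 at D7. It rose at D6 against D3 by 0.49 ± 0.07 (SE, adjusted p = 5.4e-08) and had a change of -0.11 at D3 against D2 that was not called, except without D2 replicate 2 (-0.24, adjusted p = 0.0361). Lsamp held 214 and 189.7 CPM at D2, 232 and 199 at D3, 233 and 208 at D6, and 232 and 251 with Gdf11 against 225 and 238 at D7, with overlapping groups up to D7. It was called in none of the 5 comparisons, with a log2 change of 0.20 ± 0.09 (SE, adjusted p = 0.0503) at D7 against D2. That p passed 0.05 with the replicate block (0.0305), with no filter on low counts (0.0488) and without D2 replicate 1 (0.0136).

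By role, 154 of the 216 genes stood in at least 1 list, 10 of them in more than 1, and 62 in none. Each list's counts can be set beside the shares of all 216 genes, and no list was tested against them. Those shares were 29.6% higher and 8.33% lower at D3 against D2, and 36.1% and 13.4% at D6 against D3. At D7 against D6 they were 13.9% and 1.85%, and with Gdf11 against D7 5.56% and 21.8%. At D7 against D2 they were 53.2% and 17.1%. Most transcription and chromatin regulators rose between D2 and D7. Of the 19 very long genes in this list, 8 rose and 2 fell at D3 against D2, 14 rose and 1 fell at D6 against D3, 8 rose and the other 11 were not called at D7 against D6, and 17 rose and 1 fell at D7 against D2. With Gdf11 against D7, 9 were lower and the other 10 were not called. The list's median log2 change at D7 against D2 was 0.89, against 0.29 over the 216 very long genes and 0.02 over all genes. With Gdf11 it was -0.23, against -0.07 over the 216 genes and 0.01 over all genes. The list also holds Lrmda, which codes for a leucine-rich protein of melanocyte differentiation, and Cdkal1, a tRNA-modifying enzyme, neither of them a transcription regulator. Without these 2 genes the counts of the other 17 were 15 higher and 1 lower at D7 against D2, and 8 lower with Gdf11. With library size only, the 19 genes gave 1 higher and 4 lower with Gdf11, and 2 higher at D7 against D6. At D7 against D6, 3 rose without D6 replicate 2 and 3 without D7 replicate 2, and with Gdf11 5 were lower without D7 replicate 2 and 5 without Gdf11 replicate 1. At D3 against D2, 4 rose and 2 fell without D2 replicate 2, and likewise without D3 replicate 1.

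Lrmda had the largest change of the 216 genes at D7 against D2. It held 101 and 101 CPM at D2, 307 and 267 at D3, 356 and 338 at D6, and 296 and 311 with Gdf11 against 508 and 612 at D7. No D3 library reached below 267 CPM and no D2 library above 101 CPM. Its log2 change was 1.51 ± 0.08 (SE, adjusted p = 6.1e-28) at D3 against D2, 0.69 ± 0.08 (SE, adjusted p = 7.2e-10) at D7 against D6, -0.88 ± 0.08 (SE, adjusted p = 1.2e-14) with Gdf11 against D7 and 2.48 ± 0.09 (SE, adjusted p = 3.6e-44) at D7 against D2. Both Gdf11 libraries lay below both D7 libraries and below both D6 libraries. The gain was spread along the gene, with 45 of 63 tested regions higher at D7 against D2 and the others not called. Those 45 lay from 70.0 to 859.5 kb of a span of 1037 kb, and the region that moved most carried 11.6% of the summed difference.

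Sox5, which codes for an SRY-related factor of neural and cartilage differentiation, held 183 and 189.6 CPM at D2, 332 and 292 at D3, 436 and 412 at D6, and 387 and 415 with Gdf11 against 497 and 540.0 at D7. Its log2 change was 0.75 ± 0.08 (SE, adjusted p = 3.0e-13) at D3 against D2, -0.37 ± 0.08 (SE, adjusted p = 2.0e-04) with Gdf11 against D7 and 1.48 ± 0.08 (SE, adjusted p = 4.6e-31) at D7 against D2, and the D7 libraries lay above all others. Its relative Sox6 changed by 1.08 ± 0.09 (SE, adjusted p = 3.6e-20) at D7 against D2. Rarb held 163 and 157 CPM at D2, 174 and 160.1 at D3, 284 and 277 at D6, and 303 and 339 with Gdf11 against 361 and 404 at D7. Its D2 and D3 libraries overlapped, and it rose by 0.75 ± 0.08 (SE, adjusted p = 3.1e-12) at D6 against D3. Rora, an orphan nuclear receptor, held 91.6 and 104 CPM at D2, 109.7 and 102 at D3, 121 and 103 at D6, and 91.3 and 91.4 with Gdf11 against 139 and 147 at D7. Its log2 change with Gdf11 was -0.64 ± 0.10 (SE, adjusted p = 6.3e-07), and both Gdf11 libraries lay below both D7 libraries and level with D2 replicate 1. Auts2, linked to Polycomb complexes and neurodevelopment, held 305 and 283 CPM at D2, 377 and 354 at D3, 559 and 532 at D6, and 406 and 429 with Gdf11 against 549 and 594 at D7. Its change with Gdf11 was -0.45 ± 0.07 (SE, adjusted p = 1.4e-06), without overlap of the libraries, and its rise at D3 against D2 (0.31) was not called without D2 replicate 2 or without D3 replicate 1. Zfhx3, a homeodomain and zinc finger factor, was the member of the list that fell at D7 against D2, with a log2 change of -0.21.

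Among guidance receptors and growth factor signalling genes, 8 of 18 rose and 3 fell at D7 against D2 (53.2% and 17.1% of all 216 very long genes). The counts were 6 higher and 2 lower at D3 against D2, 6 and 3 at D6 against D3, and 1 and 5 with Gdf11 against D7, which became 4 and 1 with library size only. The calls with Gdf11 fell to 2 without D7 replicate 2 and to 1 without Gdf11 replicate 1. Dcc, the netrin receptor of commissural axons, held 74.4 and 62.1 CPM at D2, 102 and 94.4 at D3, 167 and 151 at D6, and 153 and 169 with Gdf11 against 227 and 244 at D7. Its libraries rose without overlap from group to group up to D7, and the change at D7 against D2 was 1.78 ± 0.10 (SE, adjusted p = 8.2e-30). With Gdf11 it was -0.55 ± 0.09 (SE, adjusted p = 4.7e-06), the Gdf11 libraries lying close to those of D6. Robo1, a receptor for Slit proteins, changed by 1.08 ± 0.08 (SE, adjusted p = 1.6e-21) at D7 against D2 and had 369 and 398 CPM at D7, against 190.1 and 172 CPM at D2. Slit3, a ligand of Robo receptors, changed by 1.04 ± 0.09 (SE, adjusted p = 6.0e-18) in that comparison and had 226 and 233 CPM at D7, against 114 and 110.1 CPM at D2. Nrg1, a neuregulin ligand of ErbB receptors, had 394 and 399 CPM at D7, against 227 and 205 CPM at D2, and with Gdf11 its change was -0.31 ± 0.08 (SE, adjusted p = 0.0033). That change was not called with library size only or without Gdf11 replicate 1. Gpc5, a cell surface proteoglycan, fell at D3 against D2, with 173 and 149 CPM at D3, against 229 and 198 CPM at D2, and a change of -0.41 ± 0.09 (SE, adjusted p = 3.2e-04).

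Cell adhesion genes of the immunoglobulin family moved both ways. Of 11 such genes, 5 rose and 3 fell at D7 against D2 (53.2% and 17.1% of all 216 very long genes). At D3 against D2, 4 rose and 1 fell, and at D6 against D3, 3 rose and 2 fell. With Gdf11 against D7, 4 were lower. Counts of the single steps fell, without 1 library, to 3 at D3 against D2 (D3 replicate 1), to between 1 and 3 at D6 against D3 (D3 replicate 1, D3 replicate 2 or D6 replicate 1), and to 1 or 2 with Gdf11 (any of its 4 libraries). Opcml, an IgLON protein like Lsamp, held 101 and 89.3 CPM at D2, 134 and 136 at D3, 177 and 160.1 at D6, and 154 and 159 with Gdf11 against 217 and 238 at D7. It changed by 1.25 ± 0.09 (SE, adjusted p = 1.2e-21) at D7 against D2 and by -0.54 ± 0.09 (SE, adjusted p = 4.3e-06) with Gdf11, and in both contrasts the libraries did not overlap. Kirrel3, a nephrin-like adhesion molecule, changed by 1.09 ± 0.09 (SE, adjusted p = 4.2e-18) at D7 against D2. Cadm2, a synaptic adhesion molecule, gained most of its change at once, with 69.2 and 55.4 CPM at D3, against 36.5 and 30.1 CPM at D2, and a change of 0.91 ± 0.12 (SE, adjusted p = 8.8e-09). Cntn4, an axonal contactin, fell at D6 against D3, with 96.0 and 82.1 CPM at D6, against 123 and 109.8 CPM at D3, and that call was lost without D3 replicate 1 and without D6 replicate 2. Sdk1, a sidekick adhesion protein, was lower with Gdf11, with 105 and 116 CPM with Gdf11, against 143 and 150.2 CPM at D7, and a change of -0.41 that was not called with library size only.

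Receptor tyrosine phosphatases rose in 4 of 6 genes at D7 against D2 (53.2% of all 216 very long genes), and the other 2 were not called. Beside Ptprd these were Ptprk, Ptprg and Ptprn2, with log2 changes of 0.69, 0.55 and 0.42. With Gdf11 against D7, 1 of the 6 was higher, 1 lower and 4 not called. Ptprn2 was the lower 1 (-0.29), a call lost with library size only. Ptprm, which binds itself on neighbouring cells, was higher, with 121 and 124 CPM with Gdf11, against 92.7 and 97.1 CPM at D7. Its change was 0.37 ± 0.10 (SE, adjusted p = 0.0061). Leaving out any 1 of these 4 libraries ended that call. Ptprt was called in none of the 5 comparisons, and its change at D7 against D2 was -0.17.

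Synapse organisers showed as many losses as gains. Of 23 genes, 7 rose and 7 fell at D7 against D2, 4 rose and 5 fell at D3 against D2, 5 rose and 2 fell at D6 against D3 (4 called without D6 replicate 1), and with Gdf11 1 was higher and 2 lower (1 called in DESeq2 and without either D7 library). Their median log2 change at D7 against D2 was -0.05, against 0.29 over the 216 very long genes and 0.02 over all genes. Of all 216 very long genes, 53.2% rose and 17.1% fell in that comparison. Tenm3, a teneurin that guides neuronal wiring, changed by 0.63 ± 0.07 (SE, adjusted p = 5.2e-11) at D3 against D2 and had -0.08 at D6 against D3, which was not called. Tenm4, its relative, changed by 0.73 ± 0.07 (SE, adjusted p = 2.3e-14) at D7 against D2. Cntnap5b, of the contactin-associated family, moved down, with 47.2 and 54.1 CPM at D7, against 102 and 91.0 CPM at D2, and a change of -0.94 ± 0.12 (SE, adjusted p = 3.7e-11). Csmd3, a large complement-control-like membrane protein, changed by -0.47 ± 0.10 (SE, adjusted p = 2.6e-04) at D6 against D3.

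Cadherins and catenins were split as evenly at D7 against D2, where 53.2% of all 216 very long genes rose and 17.1% fell. Of 8 genes, 3 rose and 3 fell at D7 against D2 (2 and 1 without D7 replicate 1), 1 rose at D3 against D2, and 1 rose and 2 fell at D6 against D3. At D7 against D6 the smallest adjusted p of the list was 0.203, in Ctnna2. Ctnna2, a neural alpha-catenin, rose with 205 and 224 CPM at D7, against 121 and 107 CPM at D2, and a change of 0.91 ± 0.09 (SE, adjusted p = 8.1e-15). Cdh18, a type II cadherin, held 156 and 141 CPM at D2, 129 and 125 at D3, 86.5 and 95.1 at D6, and 112 and 127 with Gdf11 against 88.9 and 76.9 at D7. Its log2 change was -0.84 ± 0.10 (SE, adjusted p = 9.7e-12) at D7 against D2, and with Gdf11 it was higher by 0.52 ± 0.10 (SE, adjusted p = 6.6e-05). Both Gdf11 libraries lay above both D7 and both D6 libraries, but without D7 replicate 2 the adjusted p was 0.0519.

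Ion channels and neurotransmitter receptors gave 5 rises and 6 falls among 16 genes at D7 against D2, and 5 and 2 without D2 replicate 1 or without D7 replicate 2. Of all 216 very long genes, 53.2% rose and 17.1% fell at D7 against D2. Among the 16 channel and receptor genes 3 rose at D3 against D2. The counts were 3 higher and 2 lower at D6 against D3 and 2 and 2 with Gdf11. At D6 against D3, 3 were called without either D3 library and 1 without D6 replicate 1, and with Gdf11 2 were called without D7 replicate 2 or without Gdf11 replicate 1. Kcnma1, a calcium-activated potassium channel, held 51.1 and 43.0 CPM at D2, 53.5 and 54.7 at D3, 74.2 and 72.1 at D6, and 80.4 and 82.3 with Gdf11 against 105 and 113 at D7. It rose in each step from D3 on, by 0.44 at D6 against D3 and 0.57 ± 0.11 (SE, adjusted p = 1.1e-04) at D7 against D6. Its fall with Gdf11 (-0.42) was not called with library size only or without D7 replicate 2. Ryr2, the calcium release channel of heart and neurons, was higher with Gdf11, with 80.1 and 83.7 CPM with Gdf11, against 55.9 and 58.8 CPM at D7, and a change of 0.52 ± 0.12 (SE, adjusted p = 0.0012). Dpp10, a potassium channel partner, fell at D7 against D6, with 84.6 and 90.9 CPM at D7, against 124 and 110.0 CPM at D6, a call lost without D6 replicate 1 and without either D7 library.

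Genes at common fragile sites were called in both directions, and which direction held more calls differed between comparisons. Of 18 genes, 8 rose and 2 fell at D7 against D2 (53.2% and 17.1% of all 216 very long genes). The counts were 7 and 3 at D3 against D2, and 5 and 1 at D6 against D3. At D3 against D2 the counts were 1 and 3 without D2 replicate 2, and 3 and 3 without D3 replicate 1. With Gdf11, 1 was higher and 7 lower, or 2 and 4 with library size only. Dpyd, which starts the breakdown of pyrimidines, held 94.2 and 80.1 CPM at D2, 119.8 and 93.1 at D3, 218 and 187 at D6, and 165 and 179 with Gdf11 against 245 and 262 at D7. It rose by 0.92 ± 0.10 (SE, adjusted p = 3.4e-13) at D6 against D3, without overlap. Wwox, a tumour suppressor with an oxidoreductase domain, held 148 and 142 CPM at D2, 188 and 175 at D3, 293 and 287 at D6, and 236 and 229.6 with Gdf11 against 308 and 326 at D7, with the Gdf11 libraries below D6 and D7. Its change with Gdf11 was -0.45 ± 0.08 (SE, adjusted p = 2.5e-05). Fhit, a hydrolase of dinucleoside polyphosphates at a well-known fragile site, changed by 1.01 ± 0.09 (SE, adjusted p = 4.7e-18) at D7 against D2. Macrod2, an ADP-ribose hydrolase and the gene with the most member regions, changed by 0.47 ± 0.07 (SE, adjusted p = 2.7e-08).

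Intracellular enzymes, scaffolds and RNA-binding proteins made up the longest list. At D7 against D2, 26 of 45 rose and 1 fell, where 53.2% and 17.1% of all 216 very long genes did so. The counts were 13 and 4 at D3 against D2, 20 and 5 at D6 against D3, and 1 and 13 with Gdf11, which became 3 and 3 with library size only. At D3 against D2 DESeq2 gave 7 and 4, and edgeR gave 4 and 6 without D2 replicate 2 and 5 and 6 without D3 replicate 1. At D6 against D3 the counts were 7 and 5 without D3 replicate 2 and 10 and 3 without D6 replicate 1, and with Gdf11 5 were lower without D7 replicate 2 and 7 without Gdf11 replicate 1. Rad51b, of homologous recombination repair, held 192 and 175 CPM at D2, 207 and 192 at D3, 286 and 256 at D6, and 269.8 and 270.1 with Gdf11 against 398 and 431 at D7. Both D7 libraries lay above all others, and the change was 0.61 ± 0.08 (SE, adjusted p = 2.7e-08) at D7 against D6 and -0.62 ± 0.08 (SE, adjusted p = 4.7e-09) with Gdf11 against D7. Ppargc1a, a transcriptional coactivator of mitochondrial genes that stands in this list, had 122 and 116 CPM at D6, against 64.8 and 57.7 CPM at D3, and a change of 0.96 ± 0.11 (SE, adjusted p = 4.1e-12). Pard3b, a polarity scaffold, and Exoc4, a subunit of the exocyst, rose at D3 against D2 by 0.71 ± 0.10 (SE, adjusted p = 1.7e-08) and 0.75 ± 0.14 (SE, adjusted p = 9.5e-06). Dock2, a guanine exchange factor of blood cells, fell at D3 against D2 (-0.44), a call lost without D2 replicate 1.

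The 62 genes in no list gave 35 rises and 13 falls at D7 against D2 (53.2% and 17.1% of all 216 very long genes). They gave 20 and 3 at D3 against D2, 20 and 12 at D6 against D3, and 5 and 7 with Gdf11. Thsd4, a matrix protein that binds fibrillin, held 55.7 and 71.5 CPM at D2, 96.8 and 80.5 at D3, 143 and 140.2 at D6, and 100.1 and 91.4 with Gdf11 against 181 and 206 at D7. Its libraries with Gdf11 lay below D6 and D7 and close to D3, and the change against D7 was -1.01 ± 0.10 (SE, adjusted p = 5.3e-13). Fat3, an atypical cadherin, was lower with Gdf11 too, with 152 and 160.2 CPM with Gdf11, against 245 and 249.7 CPM at D7, and a change of -0.66 ± 0.09 (SE, adjusted p = 1.2e-08). Edil3, an integrin-binding matrix protein, was higher with Gdf11, with 42.5 and 47.8 CPM with Gdf11, against 28.0 and 28.4 CPM at D7, and a change of 0.68 ± 0.15 (SE, adjusted p = 5.1e-04), and its D6 libraries lay below both Gdf11 libraries. Anks1b, a postsynaptic scaffold, and Dlgap1, of the postsynaptic density, were called lower at D7 against D2. Anks1b held 331 and 287 CPM at D2, 210.2 and 190.2 at D3, 179.7 and 179 at D6, and 174 and 187 with Gdf11 against 174 and 175 at D7, with most of its fall between D2 and D3 and a change there of -0.62 ± 0.08 (SE, adjusted p = 5.2e-09). Dlgap1 held 418 and 403 CPM at D2, 354 and 344 at D3, 281 and 270.2 at D6, and 270.3 and 276 with Gdf11 against 286 and 279.9 at D7, a change of -0.53 ± 0.08 (SE, adjusted p = 3.8e-09) at D7 against D2.

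At D7 against D6, the step with the fewest calls, 4 very long genes fell and each call depended on single libraries. Malrd1 had 53.6 and 49.9 CPM at D7, against 73.6 and 73.5 CPM at D6, and a change of -0.50 ± 0.11 (SE, adjusted p = 0.0012), not called without D7 replicate 2. With Gdf11 it was higher than at D7, with 76.0 and 69.7 CPM with Gdf11, against 53.6 and 49.9 CPM at D7, again not called without D7 replicate 2 or without Gdf11 replicate 1. Csmd2, a relative of Csmd3, had 24.3 and 18.0 CPM at D7, against 32.2 and 32.4 CPM at D6. Dpp10 is described above, and Pard3, a polarity scaffold, had a change of -0.28, which leaving out any 1 of the 4 libraries ended. Of all 216 very long genes 13.9% rose at this step, against 3.41% of all genes tested. Of the genes in no list 5 of 62 rose, and of ion channel and receptor genes 3 of 16. A gene can count in 2 lists, as Rora did. The largest list counts, not tested against these shares, were 8 of 19 transcription and chromatin regulators, 4 of 18 guidance and growth factor genes, 4 of 18 fragile site genes and 4 of 45 enzymes or scaffolds. With library size only they were 2, 2, 1 and 1, and without D6 replicate 2 they were 3, 2, 1 and 2. Without D7 replicate 2 they were 3, 1 and 1 for the transcription, fragile site and enzyme lists.

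**Figure D3:**
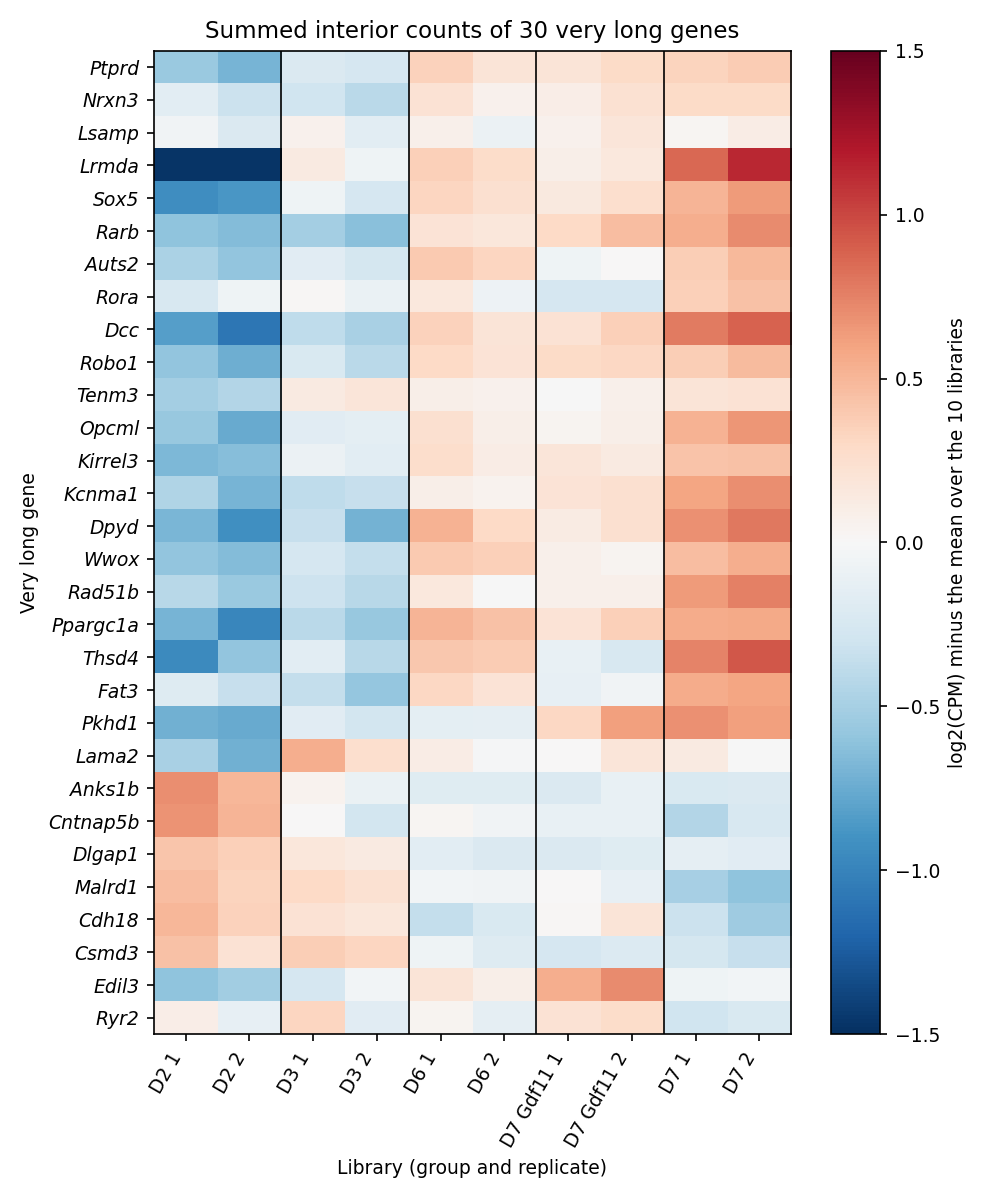
Heat map of log2 CPM over the summed interior regions, minus the mean of the 10 libraries, for 30 named very long genes (vertical axis) in each library (horizontal axis, replicates side by side), with a colour scale from -1.5 to 1.5. Lrmda and Dcc are lowest in both D2 libraries and Anks1b and Cntnap5b highest there, and Rora and Auts2 are lower with Gdf11 than at D7.

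How far a gene's change rested on 1 element varied widely. Lama2, which codes for a laminin chain, rose at D3 against D2 with 83.6 and 68.1 CPM at D3, against 40.7 and 34.6 CPM at D2, and a change of 1.01 ± 0.12 (SE, adjusted p = 1.8e-10). A single region, chr10:27012938-27013445, carried 83.6% of that difference, and without it the log2 ratio was 0.23. In Pkhd1, which codes for fibrocystin, 148 and 140.4 CPM at D7, against 82.7 and 83.6 CPM at D6 gave a change of 0.79 ± 0.10 (SE, adjusted p = 1.5e-08), of which the region chr1:20302129-20303273 carried 88.0%, leaving a log2 ratio of 0.25. That region had 101 and 94.9 CPM at D7, against 45.7 and 43.2 CPM at D6, and it was the only 1 of 23 tested Pkhd1 regions to be called. In Nrg1 the region chr8:32068685-32069545 carried 85.7% of the difference with Gdf11, and the log2 ratio without it was -0.06. Ppargc1a had 62.2% of its difference at D6 against D3 in 1 region. By contrast the region that moved most carried 12.5% of the difference in Ptprd at D7 against D2. Dlgap1 fell as a sum although 14 of its 72 tested regions rose and 16 fell, and the region that moved most carried 46.4% of the difference.

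**Figure D4:**
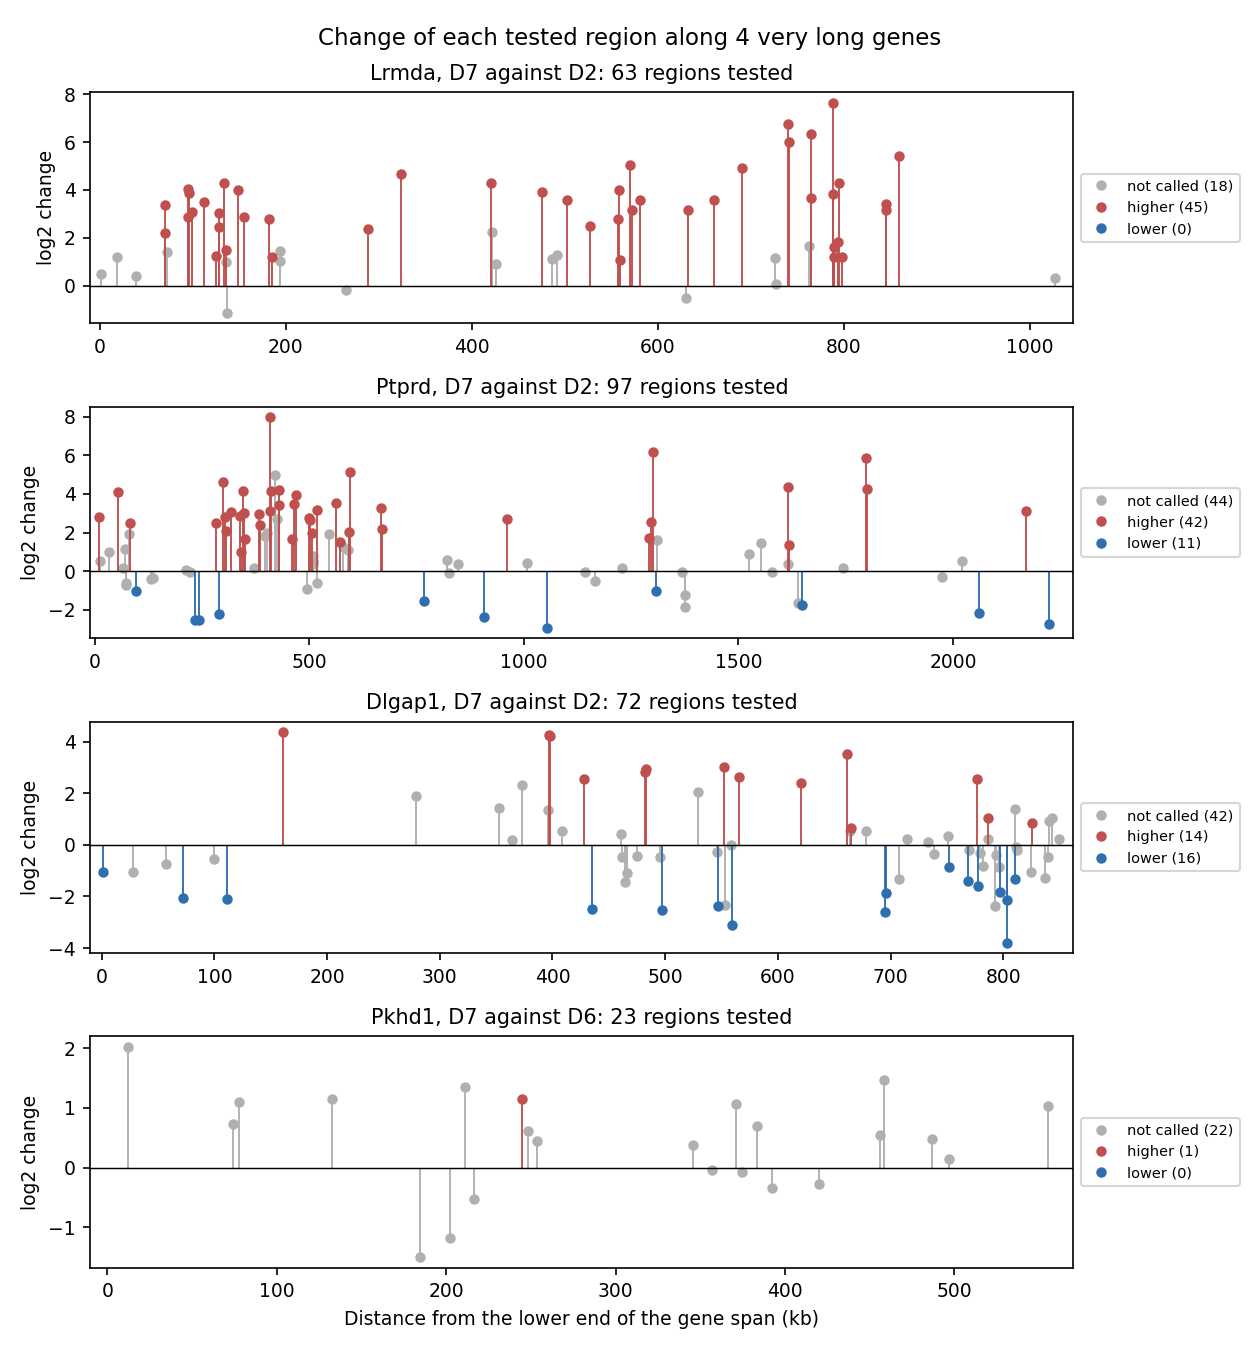
Log2 change of each tested region (vertical axis) by distance from the lower end of the gene span in kb (horizontal axis) for Lrmda, Ptprd and Dlgap1 at D7 against D2 and for Pkhd1 at D7 against D6, with called regions in red (higher) or blue (lower) and the others in grey. Lrmda shows 45 higher regions, Ptprd 42 higher and 11 lower, Dlgap1 14 higher and 16 lower, and Pkhd1 1 higher.

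The member regions with the smallest p among those that rose at D3 against D2 were low at D2. The region chr14:22589454-22590122 in Lrmda had 45.1 and 51.2 CPM at D3, against 1.25 and 1.05 CPM at D2, a log2 change of 5.36 ± 0.26 (SE, adjusted p = 6.5e-23). In Etl4, at chr2:20291065-20291984, the values were 24.3 and 27.1 CPM at D3, against 0.836 and 0.915 CPM at D2. In Psd3, at chr8:68083530-68084200, they were 30.9 and 33.6 CPM at D3, against 1.67 and 0.915 CPM at D2. All 3 were still accessible in the later libraries, with the Lrmda region between 16.6 and 45.4 CPM. Regions that fell included 1 in Macrod2 at chr2:142334489-142335304 with 17.1 and 12.8 CPM at D3, against 48.2 and 50.2 CPM at D2, and in Rad51b at chr12:79719078-79719721 with 5.10 and 2.89 CPM at D3, against 20.9 and 20.1 CPM at D2. The Rad51b region was higher again at D7, at 17.6 and 21.9 CPM, and low with Gdf11, at 5.57 and 4.63 CPM.

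The Ppargc1a region chr5:51478224-51478905 rose at D6 against D3, with 38.5 and 38.2 CPM at D6, against 3.14 and 1.44 CPM at D3, and a log2 change of 3.96 ± 0.24 (SE, adjusted p = 2.7e-18). A region of Cdk14, a cyclin-dependent kinase, at chr5:4834822-4835385 had 24.4 and 22.2 CPM at D6, against 1.95 and 1.30 CPM at D3, and 1 of Ptprd at chr4:77241885-77242359 had 20.9 and 20.4 CPM at D6, against 1.53 and 1.73 CPM at D3. Neither passed 1.95 CPM in any D2 or D3 library. Regions that fell included 1 in Zfhx3 at chr8:108722568-108723454, with 17.2 and 17.2 CPM at D6, against 62.7 and 65.2 CPM at D3, and the Lama2 region named above, with 7.35 and 6.84 CPM at D6, against 39.6 and 28.6 CPM at D3. That Lama2 region had 2.61 and 1.70 CPM at D2, and its highest values were those of D3. At D7 against D6 the Lrmda region chr14:22168064-22169210 had 52.4 and 61.7 CPM at D7, against 23.3 and 20.0 CPM at D6, a change of 1.39 ± 0.18 (SE, adjusted p = 2.3e-06). A region of Esrrg, an oestrogen-related receptor, at chr1:188017345-188017852 had 4.14 and 3.39 CPM at D7, against 16.6 and 8.21 CPM at D6, and without D6 replicate 1 its fall was not called.

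Single elements differed strongly with Gdf11. In Nrg1 the region at chr8:32068685-32069545 had 35.7 and 47.3 CPM with Gdf11, against 101 and 115 CPM at D7, with 4.18 and 2.75 CPM at D2, and a log2 change with Gdf11 of -1.38 ± 0.16 (SE, adjusted p = 2.1e-08). The Tenm4 region at chr7:96654903-96655697 had 23.5 and 25.1 CPM with Gdf11, against 57.3 and 64.1 CPM at D7. In Rad51b, the region at chr12:79813058-79813828 had 9.45 and 12.1 CPM with Gdf11, against 37.9 and 43.2 CPM at D7. In all 3 regions the Gdf11 libraries lay below both D6 libraries as well. The 3 regions with the smallest p among those higher with Gdf11 were low in all other groups, with at most 2.16 CPM in any of the other 8 libraries. They lay in Cdh18 at chr15:23452082-23452534, with 15.0 and 20.7 CPM with Gdf11, against 1.80 and 1.03 CPM at D7, in Ryr2 at chr13:11624529-11624928, with 7.01 and 7.86 CPM with Gdf11, against 0.540 and 0.295 CPM at D7, and in Sox5 at chr6:144074867-144075215, with 6.67 and 10.9 CPM with Gdf11, against 0.990 and 0.884 CPM at D7. The Sox5 region rose by 3.19 ± 0.47 (SE, adjusted p = 5.2e-06) while the sum over the Sox5 interior fell. The Cdh18 region had been called as a peak in 3 libraries, and the Ryr2 and Sox5 regions in 2 each. Such regions can enter the merged set and pass the count filter through the Gdf11 libraries alone. Their low values in the other groups are then in part set by the selection.

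Over the whole course, the Nrg1 region was also the 1 with the smallest p at D7 against D2, with 101 and 115 CPM at D7, against 4.18 and 2.75 CPM at D2, and a log2 change of 4.93 ± 0.21 (SE, adjusted p = 6.2e-27). A region of Opcml at chr9:28085480-28086072 had 48.0 and 56.0 CPM at D7, against 0.836 and 1.05 CPM at D2, and the Etl4 region had 53.0 and 66.0 CPM at D7, against 0.836 and 0.915 CPM at D2. Lower at D7, though still called as peaks in at least 9 of the 10 libraries, were a region of Lrp1b, a lipoprotein receptor-related protein, at chr2:40910752-40911343 with 8.82 and 7.22 CPM at D7, against 53.6 and 48.4 CPM at D2, a region of Cdh18 at chr15:22761058-22761714 with 7.56 and 5.30 CPM at D7, against 47.4 and 39.7 CPM at D2, and 1 of Nav2 at chr7:49347918-49348351 with 3.69 and 2.65 CPM at D7, against 32.8 and 31.0 CPM at D2. In these 6 regions the D7 and D2 libraries did not overlap, because only regions without overlap were named. The Cdh18 region carried 56.4% of the fall of the Cdh18 interior.

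Regions at internal promoters had more counts, and were more often called in all 10 libraries, than other interior regions. RefSeq gives 271 promoters for 169 of the 216 genes, and 132 of them, in 81 genes, lie inside their gene by the rule above. A member region overlapped 87 of the 132 by at least 1 base, and 92 member regions were involved. Of these 92 regions 48.9% had been called in all 10 libraries, against 7.36% of the 14233 member regions at no promoter, and their median count was 60.2 per library against 9.2. They were also wider, with a median of 391 bp against 176 bp, and the part of width in these differences was not tested. The overlapped promoters had a median of 11 CpG dinucleotides, and the other 45 a median of 3. At D7 against D2, 18 of 88 tested promoter regions rose and 13 fell (35.2% called), against 42.8% of the regions at no promoter. At D3 against D2 the shares called were 9.09% at promoters and 15.0% at no promoter, and with Gdf11 against D7 3.41% and 5.26%. At D6 against D3 they were 19.3% at promoters and 19.7% at no promoter, and at D7 against D6 1 promoter region was called, and fell. These shares are a description, with no test between them.

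The promoter regions whose sequences are shown above differed in course. The Rarb region held 30.9 and 26.5 CPM at D2, 39.4 and 42.6 at D3, 48.4 and 48.2 at D6, and 49.0 and 57.3 with Gdf11 against 67.8 and 69.1 at D7. All later libraries lay above all D2 and D3 libraries, and the change at D7 against D2 was 1.25 ± 0.15 (SE, adjusted p = 1.0e-09). Its step at D3 against D2, 0.51 ± 0.15 (SE, adjusted p = 0.0187), was not called in DESeq2 or without D2 replicate 2 or either D3 library. At the Sox6 promoter the region was low at first and held 0.314 and 0.392 CPM at D2, 0.849 and 0.866 at D3, 3.52 and 2.87 at D6, and 3.54 and 3.77 with Gdf11 against 7.56 and 4.12 at D7. The change at D7 against D2 was 4.04 ± 0.55 (SE, adjusted p = 2.1e-08), a size that depends on the fit's prior count, since the D2 libraries had 3 counts each. The Magi2 region went the other way and held 24.5 and 17.7 CPM at D2, 13.7 and 10.7 at D3, 4.47 and 4.51 at D6, and 6.08 and 6.24 with Gdf11 against 4.05 and 4.27 at D7. Its libraries from D6 on lay below all D2 and D3 libraries, with a change of -2.35 ± 0.26 (SE, adjusted p = 7.7e-11) at D7 against D2.

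At Lsamp, whose interior as a sum was not called, the promoter region held 19.5 and 20.7 CPM at D2, 15.8 and 15.3 at D3, 25.5 and 24.1 at D6, and 15.5 and 27.0 with Gdf11 against 32.0 and 34.8 at D7. It was higher at D7 than at D2 by 0.73 ± 0.19 (SE, adjusted p = 0.0019). The change with Gdf11, -0.66 ± 0.19 (SE, adjusted p = 0.0321), was not called in DESeq2, with library size only, without either D7 library or without Gdf11 replicate 1, and its Gdf11 libraries differed from each other by more than those of any other group. The Nrxn3 promoter was open throughout, with 77.7 and 76.1 CPM at D2, 81.8 and 78.2 at D3, 84.2 and 69.8 at D6, and 70.8 and 73.7 with Gdf11 against 83.4 and 77.5 at D7, and its change at D7 against D2 was 0.07 ± 0.13 (SE, adjusted p = 0.723), not called. For comparison, the Ptprg promoter region had 11.8 and 16.2 CPM at D7, against 3.76 and 4.71 CPM at D2, a change of 1.72 ± 0.29 (SE, adjusted p = 2.8e-06), and that of Magi1, another junction scaffold, had 6.30 and 4.57 CPM at D7, against 14.2 and 15.7 CPM at D2, a change of -1.43 ± 0.26 (SE, adjusted p = 1.3e-05).

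**Figure D5:**
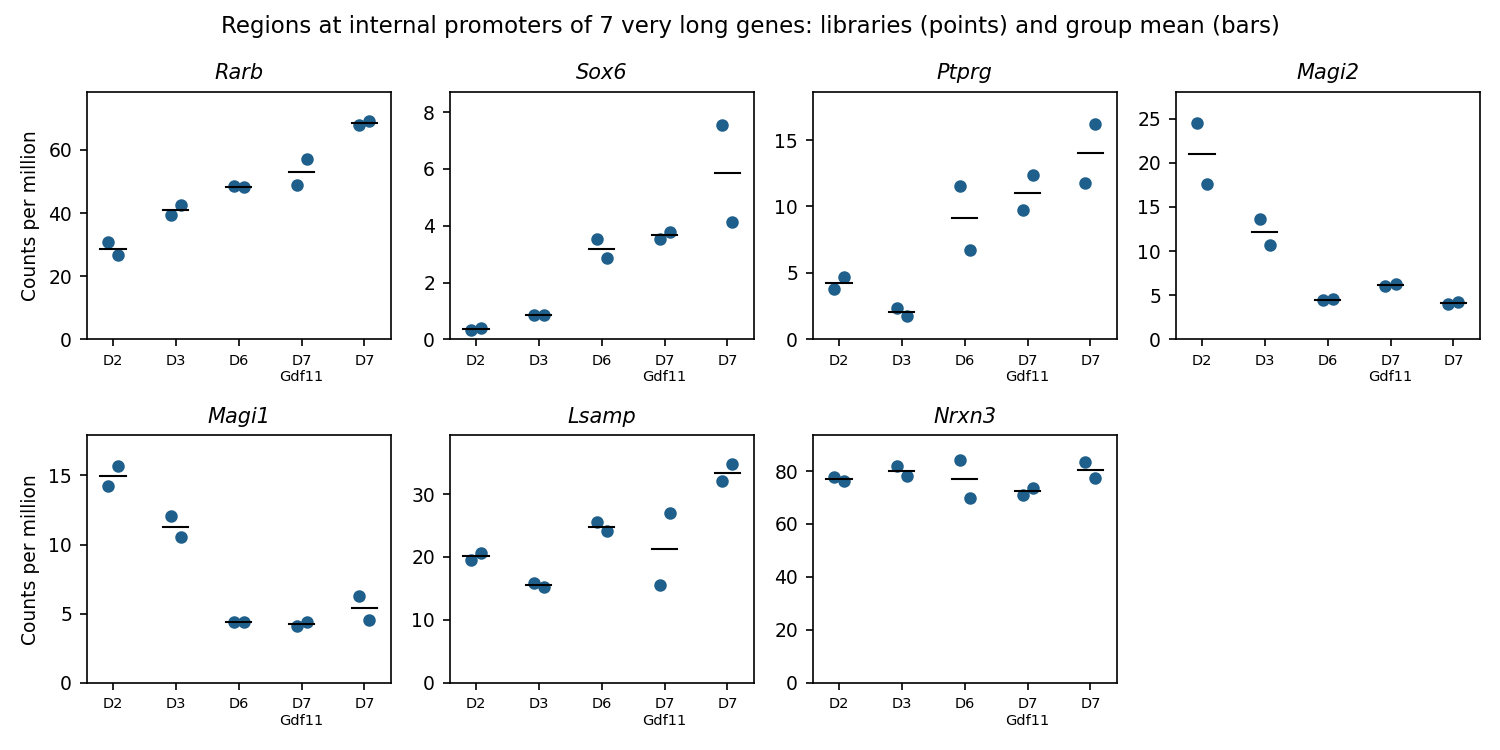
CPM (vertical axis, starting at 0 and with its own scale in each panel) of the regions at 7 internal promoters in the 5 groups on the horizontal axis, with 1 point per library and a bar at the group mean. Rarb, Sox6 and Ptprg are higher at D7 than at D2, Magi2 and Magi1 lower, and Nrxn3 stays between 69.8 and 84.2 CPM.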

How the data were processed

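ATAC-seq was measured in 10 libraries of mouse ES-Bruce4 derived cells, 2 per group. Per the submitters' processing notes, the build was mm10 and the tools were MACS2 2.1.1.20160309, HISAT2 2.1.0, HOMER 4.10, bedtools and SAMtools. The program that made the counts is not given in the sources used here. The authors deposited a raw count per merged region and library, and peak lists per library whose columns hold a fold enrichment ratio and a −log10 q-value; from these only the positions were used. The deposited motif tables were not used.

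The 10 peak lists were merged in character order of the chromosomes, so that each of the 246799 regions took 1 count. In that order 0 regions had a count of 0 in a library whose own peak they held, against 1095 to 9931 per library in numeric order. Gene spans, names and promoters came from RefSeq tables of GRCm38.p6. Members and gene lists were chosen with earlier results of these data known.

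Counts were tested in edgeR 4.0.16 (limma 3.58.1, R 4.3.3) with filterByExpr (73624 regions removed, 173175 tested), TMM factors, 1 quasi-likelihood fit of all 10 libraries by group, and Benjamini-Hochberg adjustment within a comparison at 0.05. Gene values were sums of regions over 1000 bp from the gene's ends, with library sizes and TMM factors of the region table, and 12362 of 13308 genes were tested. CPM is the count scaled by the TMM-adjusted library size. An SE is the absolute log2 change divided by the square root of F. The fits were run on simulated counts for D7 against D2 only, with changes placed in regions or genes above the median abundance. That simulation does not bear on weaker regions or on the other comparisons. Shares were compared with exact permutation tests (Python 3.11.15, scipy 1.17.1). The depth of 7150334 to 12335735 counts per library limits precision, most of all for regions near the filter.

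The genes named were Ptprd, Nrxn3 and Lsamp, the 5 with most member regions, the longest, the densest and the sparsest, and those with the smallest p past the threshold (up to 5 per direction and comparison, up to 2 per list). Named regions were up to 3 per direction with the smallest p past the threshold, above median abundance and without overlap of the libraries. Promoters and the single regions or genes named beyond these rules were chosen after their values were seen. The Pearson correlation of deviations between same-numbered replicates of different groups lay between -0.001 and 0.033, and the main fit did not pair libraries by number. A batch by replicate number was not tested beyond this and the replicate block. Alternatives were DESeq2 1.42.0, library size only, no filter, a distance of 10000 bp from gene ends, other length limits, a replicate block and leaving out each library. The counts of transcription and chromatin regulators without Lrmda and Cdkal1 were added after the data were seen. Results that need items withheld for evaluation are not reported here.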

Additional observations from a re-analysis of the deposited data

Results flagged for a closer look

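The share of autosomal counts in the interiors of very long genes was 3.50% in D6 replicate 2, set apart from the other 5 libraries of D6, D7 with Gdf11 and D7, of which the nearest had 3.66%. Its gap was 0.754 of the whole range of the 6 libraries. Of 12 sets of libraries looked at, this was the 1 set with such a library, and chance alone gives about 1 in 20. This library still lay above all 4 libraries of D2 and D3.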

How the results depend on the processing

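The higher share of counts in later libraries kept its direction in all 14 alternatives, and its unadjusted exact permutation p stayed under 0.05. Since all 6 later libraries lay above all 4 earlier ones, leaving out 1 library could not have changed either. The differences were 0.366 to 0.518 percentage points when 1 library was left out. The counts of called regions and genes moved as follows; leaving out a library removes samples by construction, and for the other changes the cause was not tested. Leaving out 1 library gave 908 to 1112 regions and 57 to 69 genes at D3 against D2, 1062 to 1405 and 64 to 89 at D6 against D3, 44 to 120 and 10 to 26 at D7 against D6, 194 to 320 and 27 to 52 with Gdf11 against D7, and 3035 to 3478 and 134 to 141 at D7 against D2. DESeq2 called 879, 1235, 110 and 258 regions in the first 4 of these comparisons, and library size only left 13 genes at D7 against D6. Limits of 300 kb and of 1 Mb change the number of genes by construction, to 533 and 55. They gave, in the same order of comparisons, 2611, 3400, 301, 869 and 7393 regions and 203, 259, 73, 122 and 368 genes over 300 kb, and 534, 706, 65, 173 and 1501 regions and 25, 24, 9, 15 and 37 genes over 1 Mb.

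The replicate block gave 1458, 1882, 212, 558 and 4029 regions and 93, 113, 41, 65 and 158 genes, all within 1.5 times of the counts without it; among the named genes it added the call of Lsamp at D7 against D2. The signs that turned belonged to changes called in no setting: with library size only, Ptprd was at -0.023 and Lsamp at -0.034 at D7 against D6, and Ptprd at 0.046 and Nrxn3 at 0.037 with Gdf11. With 1 library left out, Lsamp ran from -0.058 to 0.18 at D3 against D2 (below 0 without D2 replicate 2 or D3 replicate 1), from -0.084 to 0.16 at D6 against D3 (below 0 without D3 replicate 2 or D6 replicate 1) and from -0.038 to 0.090 with Gdf11 (below 0 without Gdf11 replicate 2). Of 544 values of named genes with 1 library left out, 464 kept call and direction, 73 lost the call, 2 gained it and 5 turned. With 2 libraries a group, a region near the filter can be called only when its change is large.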
